A study of Mus musculus with 9 samples.

Results

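The respiratory chain and the ATP synthase are built from genes of both the mitochondrial and the nuclear genome, and these genes were followed here through 9 RNA sequencing libraries prepared as mouse Müller glia. Members were taken by symbol: the 13 protein-coding genes of mitochondrial DNA, and every nuclear row whose name begins with Nduf, Uqcr, Cox4 to Cox8 or Atp5 or is Sdha, Sdhb, Sdhc or Sdhd. This gave 112 of the 17964 genes listed, 13 mitochondrial and 99 nuclear. All 112 were in the table of sorted cells and 111 in the table of cultures, where Cox8b had no row. The set was chosen by measured values, the share of mitochondrial reads and the levels of CYTB, COX1 and ND1 in OHT and sham, so differences between those groups in the members are described and not tested as new evidence. The nuclear members comprised 83 subunit genes (37 of complex I, 4 of complex II, 8 of complex III, 17 of complex IV and 17 of complex V), 8 complex I assembly factors, the supercomplex factor Cox7a2l and 7 rows for gene copies or pseudogenes. A mean of at least 10 normalised counts over the sorted libraries was reached by 13 of 13 mitochondrial and 95 of 99 nuclear members. Cox7c-ps1 lay just above this limit with a mean of 11.2 and Ndufab1-ps just below with 8.32.

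Sham and OHT (ocular hypertension) are the sorted groups, each with 3 libraries and each library from a pool of 4 retinas of wild-type mice. Both eyes of OHT mice had received 1.2 µL of silicone oil in the anterior chamber, which raises eye pressure, and sham mice had the corneal incision without oil. Cells were dissociated with papain, depleted of dead cells and captured through GLAST, a glutamate transporter of Müller glia that astrocytes carry too. The untreated primary cultures, also 3 libraries, were grown in serum from wild-type C57BL/6J pups 8 to 10 days old and passaged. The strain, sex and age of the sorted animals and the time after injection were not given in the sources used here. No label says that the pools or cultures were separate experiments, so p-values measure the spread between these libraries, which may be partly technical.

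Complexes I to IV carry electrons from NADH and succinate to oxygen. Complexes I, III and IV pump protons across the inner mitochondrial membrane, and complex V, the ATP synthase, uses the proton gradient to make ATP. Complex II is encoded by nuclear genes alone, while the other 4 complexes need subunits from both genomes. The mitochondrial subunits form the membrane core of complexes I, III and IV and part of the proton channel of complex V. Mitochondrial transcripts are made as long precursors from both strands of the circular genome and then processed. Müller glia span the retina and are known for a high rate of glycolysis beside this machinery, and the photoreceptors next to them are among the cells richest in mitochondria.

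For 6 of the mitochondrial genes the sequence itself bears on the values. A stretch of the mouse mitochondrial genome is also present in chromosome 1, at chr1:24611535-24616197 on the minus strand in the GRCm38 build, where the GENCODE M21 annotation lists 7 unprocessed pseudogenes. Over 4140 aligned bases these differ from the mitochondrial genes at 2 positions. ND4L (MT:9877-10173, GRCm38), a small membrane subunit of complex I, is shown whole with its copy Gm10222, which lacks the last bases. ND3 (MT:9459-9806), another membrane subunit of complex I, is shown by its first 60 bases with its copy Gm28438, and the capital marks the substitution T3C, counted from 1 at the first base of ND3. They are shown because a read from either place looks the same unless it covers a substitution. All sequences are GENCODE M21 transcripts, 5′ to 3′.
ND4L: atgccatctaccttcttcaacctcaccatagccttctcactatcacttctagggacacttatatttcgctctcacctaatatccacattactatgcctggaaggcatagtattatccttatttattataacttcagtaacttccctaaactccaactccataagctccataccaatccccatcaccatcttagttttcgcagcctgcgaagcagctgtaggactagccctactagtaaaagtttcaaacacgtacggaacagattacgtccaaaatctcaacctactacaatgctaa
Gm10222: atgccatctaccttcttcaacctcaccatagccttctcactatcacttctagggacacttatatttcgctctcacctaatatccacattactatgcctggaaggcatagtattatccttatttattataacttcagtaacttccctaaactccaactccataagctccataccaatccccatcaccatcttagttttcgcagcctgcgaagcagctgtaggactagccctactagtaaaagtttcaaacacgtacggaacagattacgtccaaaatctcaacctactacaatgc
ND3: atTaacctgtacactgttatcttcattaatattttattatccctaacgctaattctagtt
Gm28438: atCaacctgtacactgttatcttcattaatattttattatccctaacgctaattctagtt
The only other substitution was A1066T in COX1, a catalytic subunit of complex IV, against its copy Gm29216. The copied stretch holds COX2, ATP8, ATP6, COX3, ND3 and ND4L whole, the end of COX1 and the start of ND4. Of all windows of 150 bases, the read length, 99.4% in COX2, 99.8% in COX3, 99.4% in ATP6, 98.0% in ND4L and 97.0% in ND3 occurred without a mismatch in another annotated transcript. The share was 59.2% in ND4 and 23.6% in COX1, and 0% in ND1, ND2, ND5, ND6 and CYTB. ATP8 also had 0%, because the annotated transcripts reach only the end of its copy, where ATP6 overlaps it. The search covered annotated transcripts only.

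Library size was 37.8 to 44.5 M (1e6) reads in sham, 47.1 to 53.6 M in OHT and 66.3 to 76.7 M in the cultures, so 1 read was worth 0.0130 to 0.0264 ppm (reads per 1e6 reads of the library). Levels are given in ppm, or in ppm per kb of transcript where genes are compared with each other. The 12-gene Müller glia list made up 0.461 to 1.20% of sham, 0.263 to 0.548% of OHT and 0.298 to 0.369% of culture reads. The 12-gene microglia and macrophage list was larger in the sorted cells, at 3.97 to 5.58% and 6.07 to 7.84%, against 0.00994 to 0.0153% in the cultures. Every gene of the Müller glia list except Vim was lower in the cultures than in each sorted library: Rlbp1, the retinoid carrier of these cells, was at 1.60 to 2.84 ppm there and at 389 to 2090 ppm in the sorted libraries. Vim, an intermediate filament gene that many cultured cells express, was at 2301 to 3319 ppm in the cultures, where it made up most of the sum of the list, against 56.8 to 153 ppm in the sorted libraries. The sorted libraries thus held RNA of other cells, and the cultures differ from them in age, growth and cell makeup at once, which cannot be told apart. In such bulk samples fewer cells of a type and less RNA per cell also cannot be told apart.

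Mitochondrial transcripts took up a smaller share of reads in OHT than in sham. The 13 genes together made up 12.2, 18.1 and 13.4% of the reads of sham replicates 1 to 3, and 5.56, 3.84 and 1.98% of the reads of OHT replicates 1 to 3. The groups did not overlap, and OHT replicate 3 was the lowest of the sorted libraries. Means were 14.6% ± 3.13 in sham and 3.80% ± 1.79 in OHT (SD, n = 3 each), a difference of -10.8 percentage points. In the cultures the share was 0.890, 0.646 and 0.649%, below every sorted library. These are shares of the reads counted. In sham the 6 genes wholly in the copied stretch gave a mean of 139 ppm of the 145965 ppm.

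**Figure D1:**
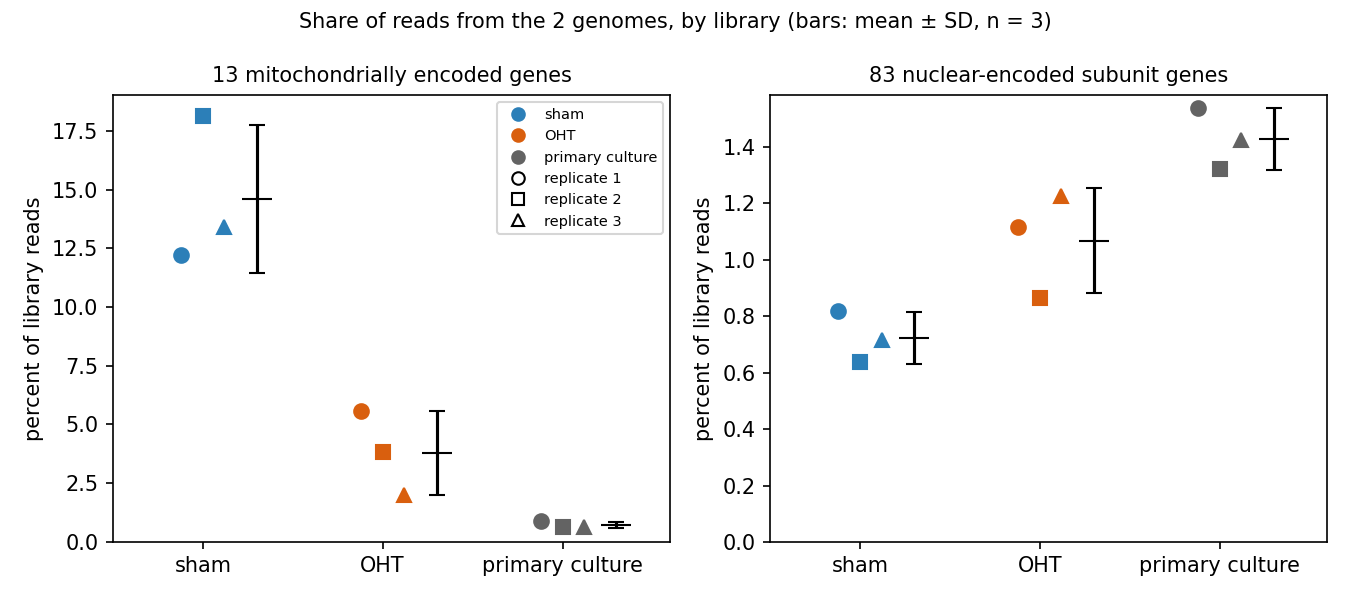
Percent of library reads from the 13 mitochondrially encoded genes (left) and from 83 nuclear-encoded subunit genes (right), 1 point per library, with mean and SD (n = 3) beside each group. The mitochondrial share lies at 12.2% or above in sham and at 5.56% or below in OHT, while nuclear subunits are at most 8200 ppm, or 0.820%, in sham.

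Other gene lists were set beside the mitochondrial share. The 14-gene rod list, all of whose genes were above 0 in the 6 sorted libraries, summed to 0.338, 2.95 and 2.43% in sham and to 0.143, 0.144 and 0.441% in OHT. The rod sums overlapped, as OHT replicate 3, the lowest sorted library in mitochondrial share, was above sham replicate 1. Genes induced by dissociation (9 genes, among them Fos and Jun) summed to 1.15 to 1.62% in sham and 0.649 to 1.20% in OHT, with overlap. The mural list (0.0214 to 0.0581% against 0.00307 to 0.00734%) and the endothelial list (0.0215 to 0.0450% against 0.0107 to 0.0199%) were lower in OHT without overlap, and the microglia and macrophage list was higher without overlap. The part of these lists in the mitochondrial difference was not tested. The 2 mitochondrial ribosomal RNA rows had the same order of groups as the 13 genes. They summed to 19203, 14604 and 11045 ppm in sham, 5690, 4307 and 2136 ppm in OHT and 1473 to 1843 ppm in cultured cells.

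CYTB, the mitochondrial subunit of complex III and one that binds haem, had the most reads counted of all members. It stood at 58997, 103105 and 75071 ppm in sham, at 28152, 19084 and 9587 ppm in OHT and at 3742 to 4750 ppm in cultured cells. The groups did not overlap. CYTB gave 53.7% ± 4.70 of the mitochondrial messenger reads counted in sham and 49.6% ± 1.11 in OHT. Among culture libraries it gave 57.5% ± 3.98 (SD, n = 3 each). The sham and OHT ranges of this share overlapped. The rank and all such shares hold for counted reads only, since the rows of the 6 genes wholly in the copied stretch are not read as transcript levels.

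COX1 was next in the sorted cells, at 28924, 29475 and 20517 ppm in sham and 12160, 9215 and 4779 ppm in OHT. Its share of the mitochondrial reads was 18.4% ± 4.59 in sham, 23.3% ± 1.27 in OHT and 9.10% ± 0.869 in cultured cells. The lowest sorted library was at 15.3% and the highest culture at 9.82%. ND1, a membrane subunit of complex I next to the quinone site, took 11.0% ± 0.368, 11.1% ± 1.51 and 15.6% ± 4.41. It was at 13240, 19423 and 15292 ppm in sham and at 7142, 3828 and 2096 ppm in OHT, again without overlap.

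For the remaining complex I genes the shares differed less. ND4 and ND5, both proton-pumping subunits, gave 5.86% ± 0.421 and 5.61% ± 0.0505 of mitochondrial reads in sham, and 5.55% ± 0.199 and 4.86% ± 0.701 in OHT. Every OHT library was below every sham library in the share of ND5, with 5.41% the highest in OHT and 5.55% the lowest in sham. ND2, the third subunit of that kind, gave 3.92% ± 0.238 and 3.99% ± 0.715. ND6, the only one of the 13 on the minus strand, gave 1.46% ± 0.152 and 1.50% ± 0.360, and its reads cannot be told from antisense reads of its neighbours, since strand was not stated. On the log2 scale of the normalised counts the 13 genes had a median difference of -1.91 between OHT and sham. They ran from -3.65 for ATP8 to -1.35 for ND3, both rows that are not read as transcript levels. Of the 7 genes not wholly in the copied stretch, COX1 and ND4 lie in it in part. The log2 difference was -1.91 (SE 0.74) for CYTB, -1.43 (SE 0.62) for COX1 and -1.79 (SE 0.62) for ND1. It was -2.01 (SE 0.50) for ND5, -1.87 (SE 0.56) for ND4, -1.78 (SE 0.49) for ND2 and -1.78 (SE 0.54) for ND6. All 13 were lower, and 11 did not overlap, where 9.18% of all 14403 genes tested lay below sham without overlap. ND3 and ATP6, both wholly in the copied stretch, overlapped. Without OHT replicate 3 the median was -1.31.

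The 6 genes that lie wholly in the copied stretch were far below the other 7. Per kb of gene, COX2, COX3, ATP6, ND4L, ATP8 and ND3 had mean levels of 16.6, 19.9, 26.3, 40.6, 56.4 and 203 ppm in sham. The other 7 ran from 4070 ppm per kb for ND6 to 69106 for CYTB. In OHT the lowest of the 7 was 14.4-fold above the highest of the 6, and in the cultures 12.8-fold. No gene of the 13 changed sides in any group. All 6 come from the same long precursor strand as their abundant neighbours. ATP8, which overlaps ATP6, is in the low group although most of its copy has no annotated transcript. How reads that align to more than 1 place were counted was not given, and neither table has a row for the chromosome 1 pseudogenes. The values of these 6 rows are therefore not read as transcript levels, and complex V, whose mitochondrial members are ATP6 and ATP8, had no mitochondrial value free of this limit.

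**Figure D2:**
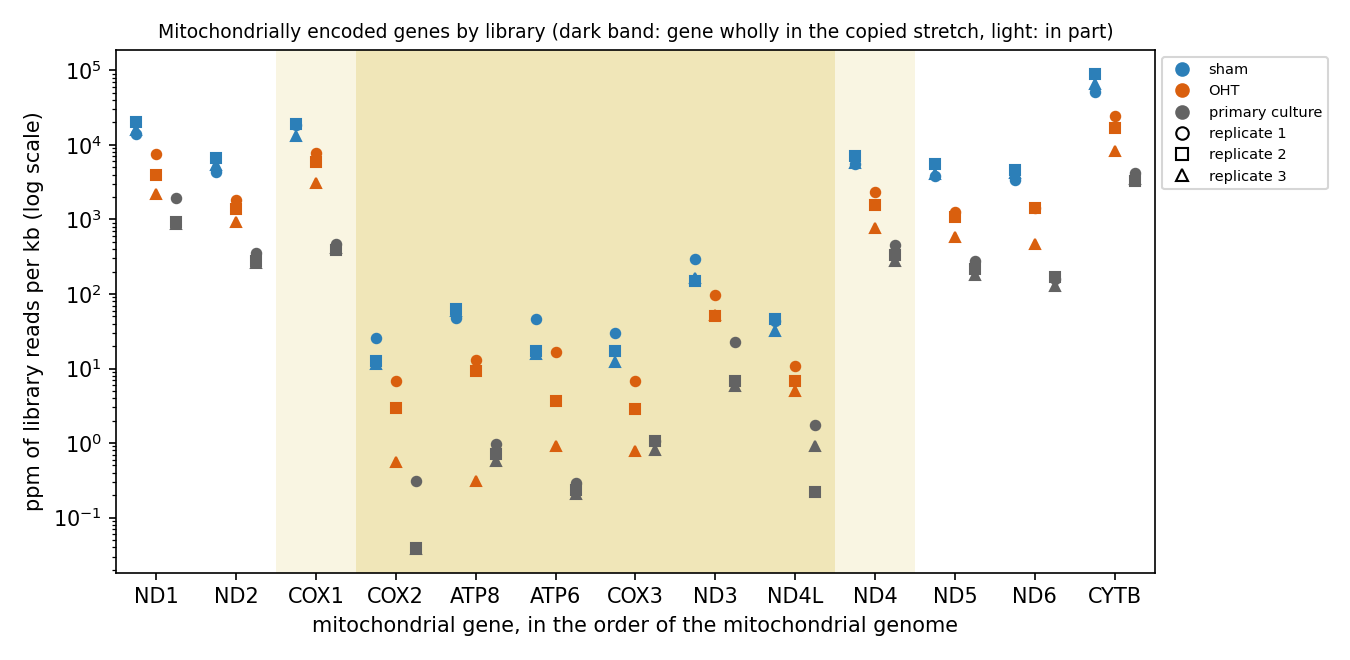
Level of each mitochondrially encoded gene in ppm per kb (log axis), in genome order, 1 point per library. The 6 genes in the dark band, wholly inside the stretch copied on chromosome 1, lie at group means of 203 ppm per kb or less in sham, against 4070 or more for the other 7.

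The nuclear subunits were at higher levels in OHT than in sham. The 83 subunit genes summed to 8200, 6362 and 7165 ppm in sham and to 11148, 8638 and 12264 ppm in OHT. The groups did not overlap, but the gap between sham replicate 1 and OHT replicate 2 was small. The microglia and macrophage list was higher in the same libraries, at 6.07 to 7.84% of reads in OHT against 3.97 to 5.58%, and its part in the nuclear subunits was not tested. With the 13 mitochondrial genes left out of the library total, the sums were 9341, 7772 and 8276 ppm in sham and 11805, 8984 and 12512 ppm in OHT, and OHT replicate 2 was below sham replicate 1. Fold changes per gene come from the normalised counts, which are scaled differently from ppm. On that scale the 95 nuclear members had a median log2 difference of 0.91, against -0.12 for all genes tested. Of the 95, 89 lay above 0 (45.2% of all genes), and 49 lay above sham without overlap (9.26% of all genes).

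No single nuclear member passed the test. limma's moderated test with Benjamini-Hochberg adjustment called 0 of 95 (0% of all genes), edgeR's quasi-likelihood test called 0 (0%), and DESeq2 called 0 although it called 1.74% of all genes. At an unadjusted limma p under 0.05, 51 of 95 were higher and 0 lower, where 5.37% of all genes were higher and 6.3% lower. The smallest adjusted limma p among the members was 0.332, the smallest in the whole table. These counts belong to the contrast in which the genes were proposed, and nothing is read from them. Without OHT replicate 1 the median was 0.65, and with quantile normalization, which moved the median of all genes to 0.01, it was 0.70 with 81 of 95 above 0.

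The difference varied with transcript length. Length was known for 90 of the 95 members, as that of the principal GENCODE M21 transcript, with a median of 823.5 bases against 2944 over 13738 genes. Across the members the Spearman correlation of length with the log2 difference was -0.61 (n = 90 genes, which share the same 6 libraries), and across all genes it was -0.21. Members under 700 bases had a median difference of 1.27 (n = 36), and all genes of that length one of 1.05 (n = 283). For 700 to 1000 bases the medians were 0.89 and 0.62, for 1000 to 1500 bases 0.70 and 0.28, for 1500 to 2500 bases 0.32 and -0.07, and from 2500 bases 0.24 and -0.27. In all 5 classes the members were above the class, by less among the shortest. Of the short genes as a whole, 82.3% were higher in OHT. A correction of each library for GC content and length was chosen after seeing the data. After it the median of the members was 0.44 and that of all genes 0.12. The 13 mitochondrial genes had a median of -2.86, the value of ND3, whose row is not read as a transcript level. The 7 genes not wholly in the copied stretch ran from -2.95 for ND6 to -1.76 for COX1.

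**Figure D3:**
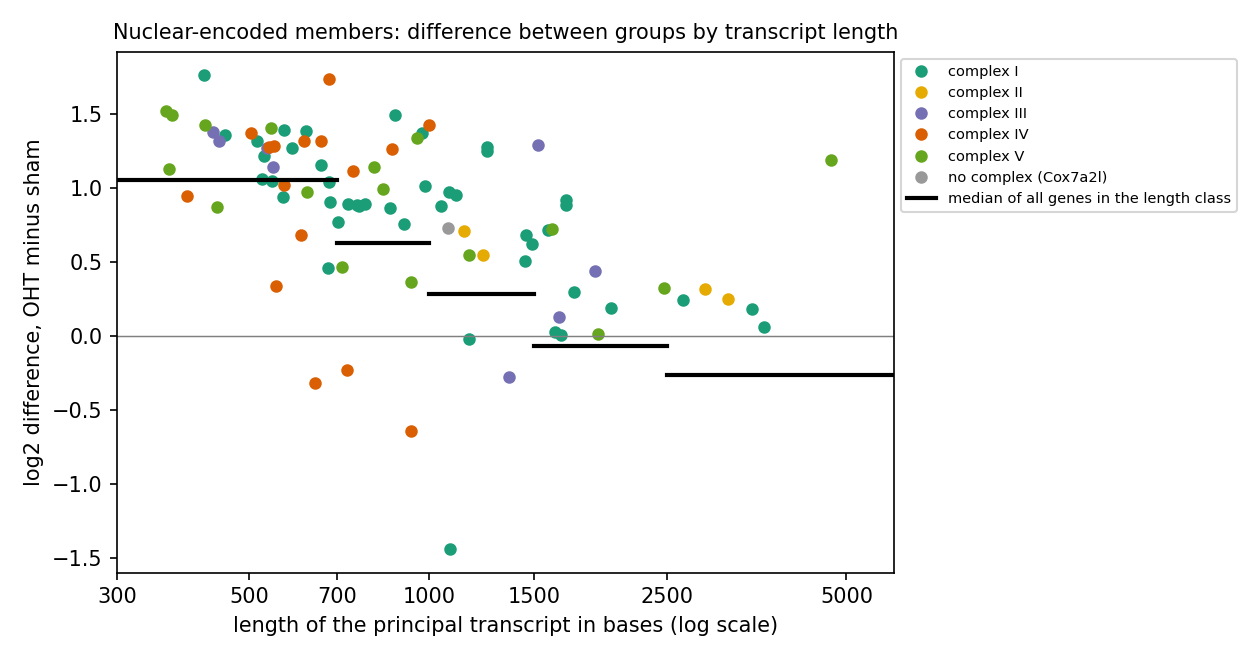
Log2 difference of OHT minus sham for 90 nuclear-encoded members against the length of the principal transcript (log axis), coloured by complex, with the median of all genes in 5 length classes as black lines. Members under 700 bases centre on 1.27 where all genes of that length centre on 1.05, and the longest members lie near 0.24 where all genes centre on -0.27.

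Complex I takes electrons from NADH and is the largest of the set. Its 37 nuclear subunits all lay above 0, with a median of 0.95 (0.50 after the length correction), and 24 of them did not overlap, beside 45.2% and 9.26% of all genes, the shares against which the counts of the other complexes are read too. Ndufa2, an accessory subunit of the NADH-binding arm, was at 84.5, 46.2 and 69.9 ppm in sham and at 132, 107 and 206 ppm in OHT. Its log2 difference was 1.39 (SE 0.38, limma adjusted p = 0.332). Ndufb7, an accessory subunit of the membrane arm, was at 101, 58.2 and 76.3 ppm and at 187, 112 and 224 ppm, a difference of 1.38 (SE 0.40, limma adjusted p = 0.332). For neither gene did the groups overlap. Ndufb8, the highest nuclear subunit of the complex per kb in all groups, was at 222 ± 29.8 ppm per kb in sham and 394 ± 113 in OHT.

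A catalytic core subunit of complex I, Ndufv1, which binds NADH, was picked after its values were seen. It was at 99.0, 112 and 89.9 ppm in sham and at 86.2, 85.6 and 81.1 ppm in OHT, a log2 difference of 0.00 (SE 0.34). The groups overlapped on the normalised counts, and in ppm all OHT libraries lay below sham. The transcript is longer than 1500 bases. Among the 8 assembly factors the median difference was 0.38 and 1 lay above sham without overlap, Ndufaf3, a share near that of all genes.

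Complex II, succinate dehydrogenase, has no mitochondrial subunit and also works in the citric acid cycle. Sdhb, its iron-sulfur subunit, was at 179, 141 and 180 ppm in sham and at 225, 217 and 243 ppm in OHT, with no overlap and a log2 difference of 0.71 (SE 0.33, limma adjusted p = 0.433). Sdha, the flavoprotein subunit, was at 283, 296 and 264 ppm and at 240, 258 and 410 ppm, so the groups overlapped. The membrane anchors overlapped too, Sdhc at 69.1 to 89.7 against 72.4 to 87.2 ppm and Sdhd at 87.3 to 96.8 against 73.0 to 150 ppm. The 4 genes had a median difference of 0.43, the lowest of the 5 complexes before the length correction and 0.54, the highest, after it.

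Complex III passes electrons from ubiquinol to cytochrome c. Its 8 nuclear subunits taken by symbol had a median difference of 1.20 (0.36 after the length correction). Uqcr10, a small accessory subunit, was at 69.7, 45.7 and 61.3 ppm in sham and at 129, 89.2 and 176 ppm in OHT, without overlap (log2 difference 1.37, SE 0.38, limma adjusted p = 0.332). Uqcrq, another small subunit, was at 77.6, 50.9 and 72.4 ppm and at 147, 94.6 and 177 ppm, also without overlap (1.28, SE 0.39). The large core protein Uqcrc1 was the highest per kb in sham, at 225 ± 17.8 ppm per kb, and differed by 0.13 (SE 0.29).

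Complex IV, cytochrome c oxidase, had a median of 1.19 over its 16 nuclear subunits tested (0.43 after the length correction). Cox5b, a structural subunit on the matrix side, was at 64.7, 47.7 and 56.8 ppm in sham and at 115, 77.1 and 162 ppm in OHT, a log2 difference of 1.26 (SE 0.38, limma adjusted p = 0.332). Cox6b1, which faces the intermembrane space, was at 151, 79.6 and 118 ppm and at 273, 167 and 282 ppm (1.31, SE 0.40). Neither overlapped. Cox4i1, the highest nuclear subunit of the whole chain per kb in every group, was at 413 ± 66.2 ppm per kb in sham, 752 ± 112 in OHT and 821 ± 119 in cultured cells.

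Complex V had a median of 0.99 over 17 subunits (0.39 after the length correction), all above 0. Atp5l, a membrane subunit near the dimer interface, was at 58.7, 41.7 and 68.2 ppm in sham and at 122, 96.7 and 156 ppm in OHT, without overlap (log2 difference 1.40, SE 0.37, limma adjusted p = 0.332). Atp5e, the small subunit of the central stalk, was at 48.8, 18.7 and 37.3 ppm and at 67.3, 68.3 and 85.2 ppm (1.42, SE 0.43). The catalytic subunit Atp5b, chosen after its values were seen and the highest of the complex per kb in sham at 224 ± 29.6 ppm per kb, was at 365, 454 and 470 ppm and at 304, 451 and 350 ppm (0.01, SE 0.32). These groups overlapped. Atp5g1, Atp5g2 and Atp5g3 encode the same ring subunit with different import signals. They were at 70.0 ± 18.4, 34.7 ± 4.38 and 75.3 ± 13.4 ppm in sham, and at 137 ± 46.4, 53.8 ± 10.3 and 86.7 ± 7.55 ppm in OHT (SD, n = 3 each). In ppm Atp5g1 and Atp5g2 lay above sham without overlap, and on the normalised counts Atp5g1 did.

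The rows for copies and pseudogenes were close to 0. Ndufb4b, Ndufb4c and Ndufs5-ps were at group means of 0.483, 1.21 and 1.59 ppm in sham. Their sequences were not compared with those of the parent genes, so whether their reads came from the parent genes was not tested. Cox7a2l, which joins complexes III and IV into supercomplexes, was at 244, 262 and 288 ppm in sham and at 418, 300 and 400 ppm in OHT, a log2 difference of 0.73 (SE 0.35, limma adjusted p = 0.447).

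The ratio of mitochondrial to nuclear subunit reads within a library does not depend on the scaling between libraries. For complexes I, III, IV and V together it was 16.1, 31.6 and 20.5 in sham, 5.33, 4.83 and 1.73 in OHT and 0.619, 0.526 and 0.489 in cultured cells. No library crossed into another group. On the log2 scale the means were 4.45 ± 0.49, 1.82 ± 0.90 and -0.88 ± 0.17 (SD, n = 3 each), and OHT minus sham was -2.63. Taken one by one the difference was -2.72 for complex I, -2.63 for complex III and -2.46 for complex IV, smaller apart than the SD between OHT libraries of 0.83 to 0.96. The value for complex III rests on CYTB alone. That for complex IV rests almost wholly on COX1, which gave 26305 of 26332 ppm in sham and lies in part in the copied stretch. The value of -3.43 for complex V rests on the ATP6 and ATP8 rows alone. OHT replicate 3 was lowest of the sorted libraries in every complex.

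**Figure D4:**
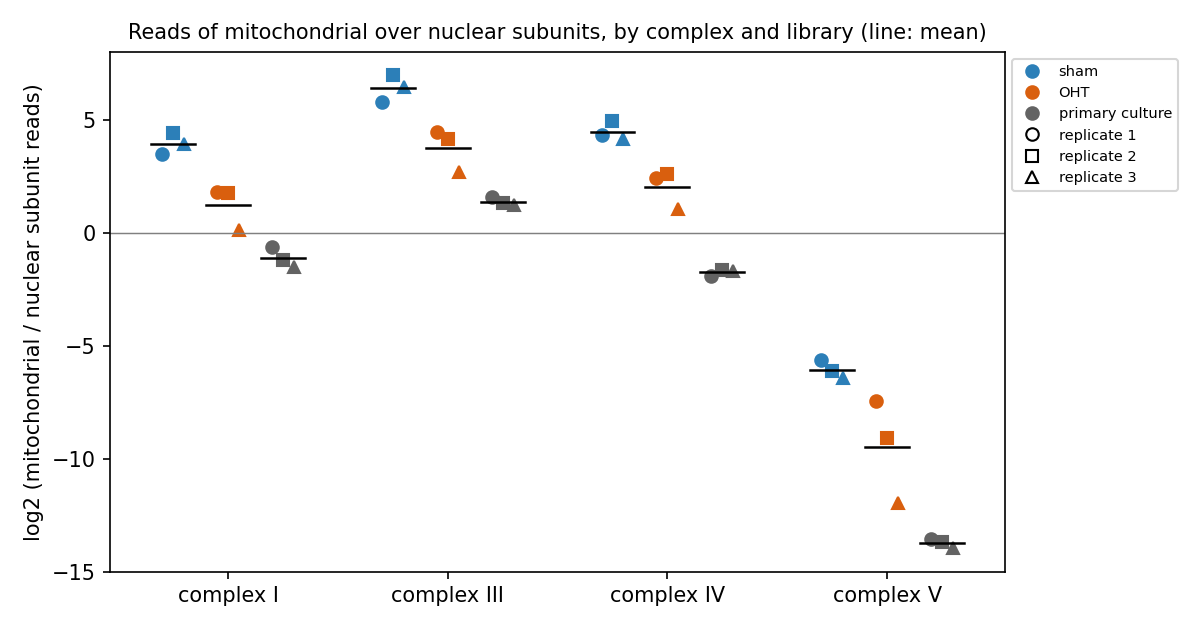
Log2 ratio of summed mitochondrial to summed nuclear subunit reads for each complex with genes in both genomes, 1 point per library and a line at the group mean. Sham, OHT and culture libraries form separate steps in complexes I, III and IV, with OHT 2.46 to 2.72 log2 units below sham.

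In OHT replicate 3 some nuclear members were more than 3-fold below the lowest of the other 5 sorted libraries on the normalised counts. They were chosen after their values were seen, among members with at least 100 normalised counts in each of the other 5. They were 4 of 87, near the 4.91% of all genes that met the rule in this library. They are named because this library decides their differences between the groups. Cox5a, a structural subunit of complex IV, was at 15.5 ppm there and at 67.1 to 114 ppm in the other 5. Uqcrfs1, the Rieske iron-sulfur protein of complex III, was at 17.2 ppm against 71.3 to 106 ppm. The cultures had 13.1 to 17.8 ppm of it. Ndufab1, the acyl carrier protein bound to complex I, was at 16.3 ppm against 48.0 to 158 ppm. Ndufaf6, a complex I assembly factor, was at 0.552 ppm against 9.03 to 14.5 ppm, with 0.599 to 1.06 ppm in the cultures. The partners of these genes in the same complexes were not low in this library: its sums for complexes I, III and V were the highest of the 6 sorted libraries. ATP6 and ND6 met the rule too. ATP8, COX2 and COX3, which are under 100 normalised counts in OHT replicate 2 and so were not eligible, were also lowest in OHT replicate 3, at 2.40, 14.4 and 23.2 normalised counts. Without this library the log2 difference of Uqcrfs1 was 0.74 in place of -0.28, that of Cox5a 0.81 in place of -0.32, that of Ndufab1 1.25 in place of 0.18 and that of Ndufaf6 0.11 in place of -1.44. In OHT replicate 1, where 7.75% of genes met the rule, no member did, and in OHT replicate 2 only Ndufa4l2 did.

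The cultures carried more nuclear and fewer mitochondrial subunit reads than the sorted cells. Nuclear subunits summed to 15391, 13222 and 14244 ppm, above every sorted library. Of 81 nuclear subunits with a mean of at least 1 ppm, 25 (30.9%) lay above all 6 sorted libraries, where 36.9% of all such genes did, a share near that of all genes. Ndufb6 and Atp5o were picked after their values were seen. Their ratios of culture to sham mean were among the largest of the 81, so they do not stand for the set. Ndufb6, an accessory subunit of complex I, was at 244 ± 30.4 ppm against 48.8 ± 13.5 in sham. Atp5o, the oligomycin sensitivity-conferring subunit of the stalk, was at 508 ± 23.5 against 113 ± 13.3 ppm (SD, n = 3 each). Only 3 of the 81 (18.9% of all genes) lay below all 6 sorted libraries, Cox4i2, Cox6a2 and Ndufa4l2, and all 3 are alternative forms of complex IV subunits. Of the mitochondrial genes 11 of 13 did, all except ATP8 and COX3. No test was made across the tables.

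Complex IV has tissue-specific and condition-specific forms of several subunits. Cox4i2, the form of subunit 4 known from hypoxic and perivascular cells, was at 49.1, 129 and 42.5 ppm in sham, at 44.2, 28.0 and 79.8 ppm in OHT and at 1.48 to 1.64 ppm in cultured cells. The sorted groups overlapped. Per kb it made up 19.7% ± 12.9 of Cox4i1 plus Cox4i2 in sham, 8.24% ± 3.41 in OHT and 0.264% ± 0.0411 in cultured cells (SD, n = 3 each). The 6-gene mural cell list, pericyte genes among them, summed to 0.0214 to 0.0581% in sham, 0.00307 to 0.00734% in OHT and 0.0258 to 0.0346% in cultured cells, and its part in Cox4i2 was not tested.

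Cox6a2, the heart and muscle form of subunit 6a, was at 6.58, 2.16 and 5.80 ppm in sham and at 12.8, 10.0 and 14.4 ppm in OHT, without overlap (log2 difference 1.74, SE 0.67, limma adjusted p = 0.377). The cultures had 0.166, 0.0132 and 0.0782 ppm, of which the lowest is worth 1 read. Per kb it was 2.66% ± 0.696 of the pair with Cox6a1 in sham and 4.23% ± 0.354 in OHT. Ndufa4l2, the hypoxia-linked relative of the complex IV subunit Ndufa4, was at 3.04, 10.1 and 4.29 ppm in sham and at 12.8, 0.448 and 3.48 ppm in OHT, and the OHT range enclosed the sham range.

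Cox6b2, the testis form of subunit 6b, was at 5.76, 6.38 and 3.69 ppm in sham, at 6.38, 3.64 and 6.96 ppm in OHT and at 26.8, 15.7 and 19.0 ppm in cultured cells, so the sorted groups overlapped and the cultures lay above both. Its part of the pair with Cox6b1, per kb, was 5.24% ± 2.61, 2.53% ± 0.153 and 11.3% ± 1.17. Cox7a1 and Cox8b, the muscle forms of subunits 7a and 8, were at or near 0 in most libraries, with a highest value of 1.24 ppm for Cox7a1 in OHT replicate 1 and of 0.392 ppm for Cox8b in OHT replicate 2.

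**Figure D5:**
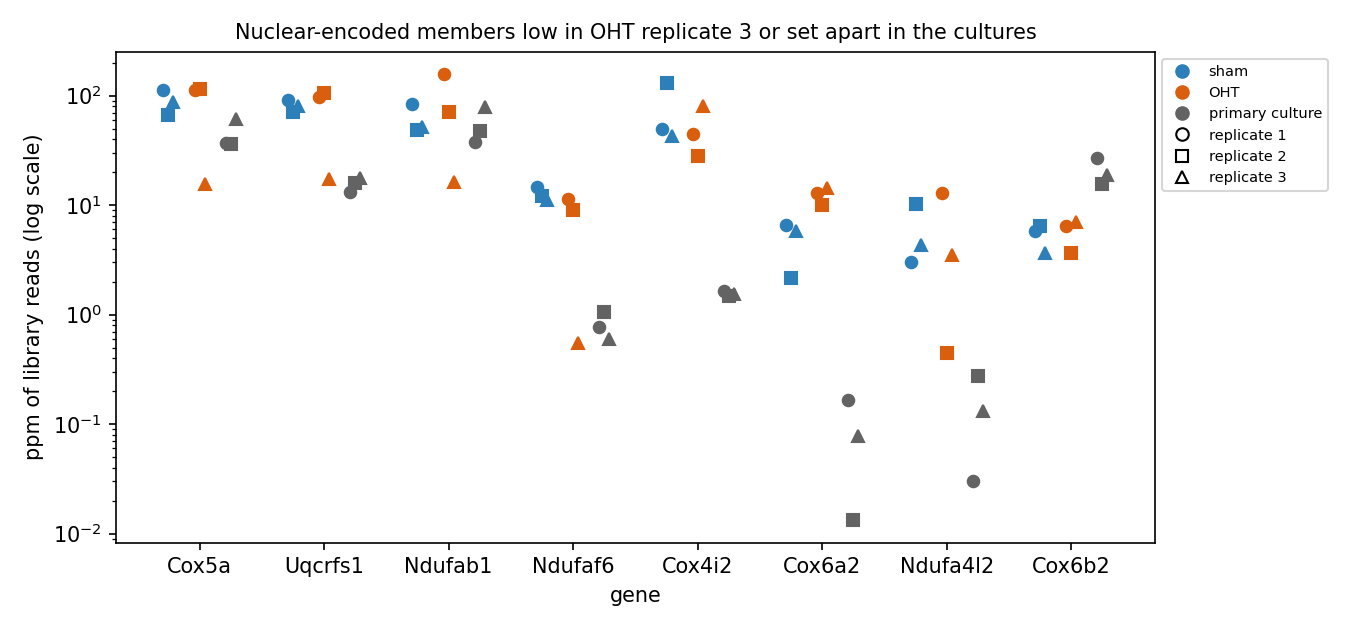
Level in ppm (log axis) of 8 nuclear-encoded members, 1 point per library. OHT replicate 3 stands below the other sorted libraries for Cox5a, Uqcrfs1, Ndufab1 and Ndufaf6, and the cultures stand below all sorted libraries for Cox4i2, Cox6a2 and Ndufa4l2 and above them for Cox6b2.

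Genes that make, process or regulate mitochondrial RNA were compared as lists. Limma called 0 of the 15 genes of mitochondrial transcription and DNA upkeep, 0 of 19 of RNA processing and 0 of 8 biogenesis regulators. At an unadjusted limma p under 0.05 there were 0, 2 (1 higher and 1 lower) and 0, and edgeR called no gene of the table. Of all genes, 5.37% were higher and 6.3% lower at that limit. The median log2 differences of these lists were -0.28, -0.06 and -0.38, near the -0.12 of all genes. Tfam, which packages mitochondrial DNA and starts its transcription, was at 642, 433 and 347 normalised counts in sham and at 1904, 579 and 550 in OHT, so the groups overlapped. Ssbp1, of the same list, differed by 0.73 (SE 0.42), also with overlap. Elac2, which cuts transfer RNAs out of the precursors, was at 668, 487 and 842 and at 99.5, 524 and 138, with overlap. Its log2 difference was -1.74 (SE 0.72, limma adjusted p = 0.390). Hsd17b10, also of the RNA processing list, was at 1835, 2552 and 2680 and at 4804, 3583 and 3807, without overlap. It differed by 0.79 (SE 0.34, limma adjusted p = 0.407). Ppargc1a, a coactivator of mitochondrial biogenesis, was at 154, 578 and 322 and at 325, 38.7 and 213, with overlap. Yy1, also a biogenesis regulator, differed by 0.69 (SE 0.50), with overlap.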

How the data were processed

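RNA was measured in 9 libraries (3 sham, 3 OHT, 3 primary cultures). Per the labels' protocols, SMARTer v4 cDNA was amplified from little RNA, sonicated and sequenced as paired reads of 150 bases. Per the submitters' processing notes, bcl2fastq 2.20, Trim Galore 0.6.6, FastQC 0.11.9, STAR 2.7.1a and the mm39 build were used. The counting program, annotation, strand setting and handling of multiply aligned reads were not given in the sources used here. The values deposited by the authors are a signal: gene counts divided by 1 factor per library. Whole reads were recovered in 100% of values (tolerance 0.05 reads), except that the factor of culture replicate 3 was too close to 1 to check. The 2 tables were normalized separately, so cultures were set beside sorted cells in ppm, with no test.

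OHT and sham were compared with limma 3.58.1 (R 4.3.3; eBayes with trend) on log2(value + 1) for 14403 genes with a mean of at least 10, adjusted by Benjamini-Hochberg at 0.05. Log2 differences understate low genes and can differ from ratios in ppm. Alternatives were edgeR 4.0.16 and DESeq2 1.42.0 on recovered reads, other pseudocounts, filters, scalings and weights, a replicate block and leaving out each library. Tables and figures were made with matplotlib 3.10.9, scipy 1.17.1, pandas 2.3.3 and numpy 2.4.6 under Python 3.11.15. The fits were also run on simulated data with changes much larger than those of the members. That run does not show whether differences of the members' size would be called. Lengths are of the principal GENCODE M21 transcript, found for 94.7% of the nuclear members tested. Intervals between libraries cover neither pooling nor amplification. Members and lists were chosen with earlier results of these data known. Named genes are the mitochondrial members, isoform pairs, complex II, per complex the 2 smallest limma p and the highest member, and per other list the 2 smallest p; others are marked in the text.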

Additional observations from a re-analysis of the deposited data

How the results depend on the processing

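limma called 0 nuclear members in every setting run, edgeR 0 and DESeq2 0. Over all genes the calls were 0 with limma and edgeR, 250 with DESeq2 (ND2 and ND5 among them), 12 without sham replicate 1 and 17 without sham replicate 3. The median log2 difference of the mitochondrial members (-1.91) ran from -2.46 without OHT replicate 1 to -1.31 without OHT replicate 3, and that of the nuclear members (0.91) from 0.65 without OHT replicate 1 to 1.19 without OHT replicate 2, with 0 to 0 called. Correction for GC content and length, added after seeing the data, gave -2.86, which is the value of the ND3 row, and 0.44. Of 17 other settings each, none moved either median by more than the SD between libraries of the members' median level (0.90 and 0.42). The share of mitochondrial reads (-10.8 percentage points) was -4.79 without CYTB, since that gene alone gives 48.3 to 56.8% of mitochondrial reads in the sorted libraries, and -12.0 to -9.03 with a library left out. The log2 ratio of the genomes (-2.63) ran from -2.92 to -2.11, and the nuclear subunit sum in the cultures (14286 ppm) from 13733 to 14817. Same-numbered sham and OHT libraries correlated at 0.08, -0.02 and -0.05 in their deviations, which cannot settle whether they shared a preparation. With the replicate block the medians were -1.91 and 0.91, the ratio was -2.63, and 0 nuclear members and 2 genes of the whole table were called. Sham replicate 1 and OHT replicate 1 correlated best with each other. Sham replicate 2 correlated best with OHT replicate 3, so not every library was nearest its own number.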

Other observations

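The 37 assembly factors of complexes II to V had a median log2 difference of 0.42. For the 16 genes of other mitochondrial content it was 0.38, and for the 13 genes of the citric acid cycle 0.10. Limma called 0 of them (0% of all genes). At an unadjusted limma p under 0.05, 3, 4 and 0 were higher and 0 lower, where 5.37% of all genes were higher and 6.3% lower. Cycs, which is cytochrome c, the carrier between complexes III and IV, was at 1168, 849 and 1067 normalised counts in sham and at 2638, 1438 and 2504 in OHT, without overlap (log2 difference 1.05, SE 0.41, limma adjusted p = 0.377). Timm23, a channel of the inner membrane through which proteins enter, differed by 0.83 (SE 0.34, limma adjusted p = 0.386), also without overlap. Cmc2, a complex IV assembly factor, differed by 1.32 (SE 0.54), and Uqcc2, which assembles complex III, by 1.00 (SE 0.41). In the citric acid cycle list Idh3g differed by 0.44 (SE 0.30), without overlap, and Idh3a by 0.39 (SE 0.40), with overlap.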
